A study of Schizosaccharomyces pombe with 12 samples.

Results

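This section describes how the RNA of wild-type fission yeast, *Schizosaccharomyces pombe*, differed between 4 h and 8 h after a change of culture medium. The study grew haploid *h-* cells of strain AGP72 in rich YES medium (supplemented yeast extract) and moved log-phase cells into ePMGT(+PO4), a defined medium with phosphate, glutamate and thiamine. Poly(A)+ RNA was sequenced at 0 h in YES and at 2, 4 and 8 h in the defined medium, with 3 libraries at each time that the study describes as biological replicates. All groups are the same strain, whose label gives only the mating type. A supplementary strain list, which does not name AGP72, gives all strains mutations in *ade6*, *his3*, *leu1* and *ura4*, and *ura4* was listed at 0 in each of the 4 groups. The 4 h group (3 libraries) and the 8 h group (3 libraries) were in the same medium, so the comparison asks which RNAs were still moving once the cells had left YES. No culture stayed in YES or was sampled without the transfer, so time in the defined medium, cell density and time in culture cannot be told apart.

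Of 6988 features listed, 5342 averaged 100 or more normalized reads at 4 h or at 8 h and were kept, 4807 of them coding and 535 noncoding. The other 1646 lay below that level at both times. The features just outside were the noncoding RNA *SPNCRNA.1216*, with averages of 99.97 at 4 h and 93.9 at 8 h, and *ofd2-antisense-1*, with 99.8 and 98.3. Just inside were *SPCPB16A4.06c*, with 80.0 and 100.02, and *emr1*, with 81.1 and 100.1. The deposited values are averages of the 3 libraries of a group, in reads scaled by the authors' size factors, and the averages of all features sum to 17.64 M normalized reads at 4 h and 17.02 M at 8 h. Single libraries were not analysed, so neither the overlap of the groups nor the number of libraries that show a direction can be given, and the error of each difference was rebuilt from the deposited standard errors. An h- culture expresses the M mating type, and the 5 M-cell markers summed to 2134 normalized reads at 4 h. Most of that came from *mam1* (1207) and *mfm2* (784), while *mam2* (104), *mfm1* (26.5) and *mfm3* (11.9) were low. The P-cell markers *map2* and *map3* were at 136 and 388 at 4 h, above those 3 low M-cell markers, and *mat1-Pc* was not matched.

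Some background helps in reading the changes. In fission yeast, ample glucose represses genes for the use of other carbon sources and for gluconeogenesis, and it also holds back the mating genes, which a high-mobility-group factor, Ste11, activates when nutrients run short. Ribosomal protein and ribosome assembly genes, by contrast, follow growth. Zinc is sensed by the repressor Loz1: when zinc is scarce, cells lower the zinc-dependent alcohol dehydrogenase *adh1* and raise *adh4* and the zinc importer *zrt1*.

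Most RNAs moved little between 4 h and 8 h. The median log2 difference (8 h minus 4 h) was 0.0055, the 5th and 95th percentiles were -0.295 and 0.294, and 98.1% of the 5342 RNAs stayed within 1.5-fold. Because the median standard error was only 0.063, many small differences still passed. At an adjusted p of 0.05 or less, 651 RNAs rose (12.2% of those tested) and 855 fell (16%), together 28.2%. The test was the rebuilt Wald test with Benjamini-Hochberg adjustment. Its p-values rest on errors worked back from the authors' fit, not on a spread measured among the 6 libraries compared. In this text "rose" and "fell" mean passing that test, at any fold. "Called" adds a change of 2-fold or more, and only 15 RNAs were called higher (0.281%) and 3 lower (0.0562%). At 1.5-fold or more, 49 were higher (0.917%) and 51 lower (0.955%). Coding RNAs were 40 of the 49 and 14 of the 51, beside 4807 of all 5342. The balance of small rises and falls depends on the scale: 43.2% of the RNAs that passed were rises with the authors' size factors, and 68.8% when the averages were scaled to the same total, which shifts every log2 difference by 0.05. With a t distribution of 4 degrees of freedom, as the 6 libraries alone would give, only *adh4* still passed. The number of calls therefore rests on the normal distribution used for p. That choice treats as known a dispersion that the authors' fit shared across libraries and features. With dispersions doubled under the normal distribution, 17 RNAs were called.

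**Figure D1:**
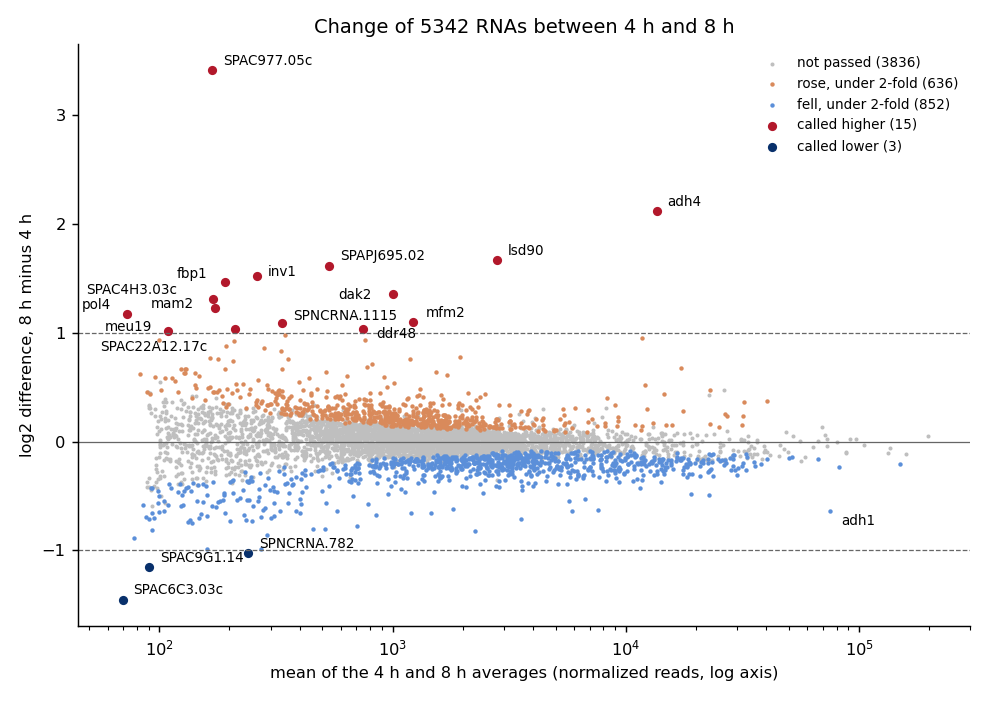
Log2 difference between 8 h and 4 h (vertical axis) against the mean of both group averages in normalized reads (horizontal log axis) for 5342 RNAs, with the 15 called higher and the 3 called lower named and dashed lines at 2-fold. Most points lie close to 0, *SPAC977.05c* and *adh4* stand highest, and the 3 called lower lie at the low end of the averages.

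Alcohol dehydrogenase RNAs moved in opposite directions, and *adh4* had the smallest adjusted p of all. *adh4* averaged 4627 normalized reads at 0 h, 5930 at 2 h, 5082 at 4 h and 22033 at 8 h. It stayed close to its YES level through 4 h and was then 4.34-fold higher (log2 difference 2.12 ± 0.06 SE, 3 libraries a group, adjusted p = 2.67e-252 in the rebuilt Wald test). *adh1*, the main fermentative alcohol dehydrogenase and 1 of the most abundant mRNAs, averaged 90998, 80584, 91340 and 58694 at 0, 2, 4 and 8 h. It fell by 0.64 ± 0.07 on the log2 scale (adjusted p = 1.15e-18), a 1.56-fold drop. The difference between the 4 to 8 h step and the 2 to 4 h step passed for both, at 2.34 (adjusted p = 5.45e-100) for *adh4*, and the 2 steps share the 4 h libraries.

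The zinc importer *zrt1* took a different course, with averages of 2573, 16685, 19183 and 26642. Most of its rise was present by 2 h, and it rose by a further 0.47 ± 0.04 from 4 h to 8 h (adjusted p = 1.38e-28). The repressor gene *loz1* rose by 0.26 ± 0.08 (adjusted p = 0.0078), from 1155 to 1380. The metallothionein gene *zym1* was at 0.32 ± 0.13 (adjusted p = 0.048), a call that is lost (adjusted p = 0.052) when ratios are centred on their median. Of 14 zinc and copper genes with enough reads, 4 rose and 2 fell (28.6% and 14.3%, beside 12.2% and 16% of all RNAs tested), with a median of 0.10. The fallen members were superoxide dismutase *sod1* and the endoplasmic reticulum zinc importer *zhf1*, and neither call held with averages scaled to the same total (7 rises and 0 falls) or with dispersions doubled (2 rises and 0 falls). The copper transporter subunits *ctr4* (-0.33 ± 0.22) and *ctr5* (-0.23 ± 0.13) did not pass.

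The RNA with the largest fold change was *SPAC977.05c*, a subtelomeric gene of the Velum formation protein family of unknown role, at 35768 to 36382 on chromosome I of assembly ASM294v3. It averaged 0.71 normalized reads at 0 h, 10.9 at 2 h, 29.0 at 4 h and 308 at 8 h, a rise of 3.41 ± 0.34 between the last times (adjusted p = 8.92e-21, 10.6-fold). It entered the set only through its 8 h level. Its near copies *SPBC1348.06c* (9.01 at 4 h and 97.3 at 8 h) and *SPBPB2B2.15* (14.4 and 96.1) missed the 100-read level. The annotated sequences of *SPAC977.05c* and each copy are 99.51% identical, and the 2 copies are identical to each other, so reads may have been divided among the 3 or dropped, and the 3 levels are uncertain.

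Promoter sequence near these genes was read from RefSeq assembly ASM294v3, from 250 bases before to 50 after each annotated gene start, on both strands, since Loz1 is known to bind DNA. The motif was a relaxed form of the Loz1 element and was chosen after the values were seen. It was found in 1.31% of the 4805 coding promoters read, in 1 of 13 promoters of coding genes called higher (*SPAC977.05c*), and in that of *zrt1*. The windows below are shown because they carry it, with the match in capitals and 8 flanking bases on each side in lower case. The *zrt1* window lies at chrII:3606975-3607000 on the plus strand, with the match starting 194 bases before the gene. The *SPAC977.05c* window lies at chrI:36508-36533 on the minus strand, 143 bases before the gene, and its copy *SPBC1348.06c* carries the same letters at chrII:16722-16747, also on the minus strand. In the latter windows the match overlaps a second match on the opposite strand.
*zrt1*: ttttcaagCGTCGATCCTtaaacctt
*SPAC977.05c*: tgaaattgCGACGATCATgatctacg
*SPBC1348.06c*: tgaaattgCGACGATCATgatctacg
No match was found in the *adh4* window or in that of *loz1*. These matches describe letters only and are not evidence of binding.

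Genes listed as glucose-repressed rose. The list was written with earlier results of these data known, so its counts are a description and not a test. Of 12 glucose-repressed and gluconate genes, 11 rose and 0 fell, against 12.2% rising over all RNAs tested, and their median log2 difference was 0.59, beside 0.0055 for all. The gluconeogenic enzyme fructose-1,6-bisphosphatase, *fbp1*, averaged 89.4, 132, 102 and 282 at 0, 2, 4 and 8 h (1.47 ± 0.16, adjusted p = 4.63e-18). Secreted invertase, *inv1*, which splits sucrose, averaged 83.0, 122, 136 and 390 (1.52 ± 0.16, adjusted p = 2.57e-18). Both were close to their 2 h level at 4 h and well above it at 8 h. The dihydroxyacetone kinase *dak2* averaged 850, 947, 563 and 1444, so that it was lower at 4 h than before and then rose by 1.36 ± 0.17 (adjusted p = 6.26e-14). *lsd90*, whose annotation here gives no function, averaged 660, 1117, 1346 and 4262 (1.66 ± 0.21, adjusted p = 8.88e-14).

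The rest of the list moved by less than 2-fold. The maltose-splitting enzyme gene *agl1* rose by 0.93 ± 0.12, glucose dehydrogenase *gcd1* by 0.71 ± 0.09, and gluconokinase *idn1* by 0.15 ± 0.05, while the maltase gene *mal1* was at 0.18 ± 0.07 and did not pass. A further starch-splitting enzyme gene called higher, *SPAC4H3.03c* (annotated as a glucan 1,4-alpha-glucosidase), averaged 60.8, 75.5, 97.5 and 241 (1.31 ± 0.20, adjusted p = 4.99e-09). Among 6 hexose transporters with enough reads, 3 rose, namely *ght3* for gluconate (0.56 ± 0.12), *ght1* (0.45 ± 0.14) and *ght4* (0.37 ± 0.09), and *ght2* fell by 0.22 ± 0.04. The high-affinity glucose transporter *ght5*, which averaged 4953 at 2 h and 9451 at 4 h, was at 9492 at 8 h (0.01, 95% interval -0.21 to 0.22).

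Most glycolytic and fermentative genes did not pass. Of 17 glycolytic and fermentative genes, 4 rose (23.5%) and 1 fell (5.9%), beside 12.2% and 16% of all RNAs tested, with a median of 0.02. The rises belonged to the minor glyceraldehyde-3-phosphate dehydrogenase *gpd3* (8024 to 15484, 0.95 ± 0.12), the minor enolase *eno102* (145 to 275, 0.92 ± 0.21), the minor pyruvate decarboxylase *pdc201* (117 to 178, 0.60 ± 0.15) and, slightly, hexokinase *hxk1* (0.14 ± 0.04). *eno102* averaged 203 at 0 h and 201 at 2 h, and its 8 h level did not pass against 0 h (0.43 ± 0.21). The fall was that of *adh1*. The abundant isoform *tdh1* was at -0.10 ± 0.14 (95% interval -0.38 to 0.17), and did not pass. Citric acid cycle genes (0 rose and 1, *cit1*, fell, of 17) and respiratory genes (7 rose and 0 fell of 36, median 0.04) showed small differences.

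**Figure D2:**
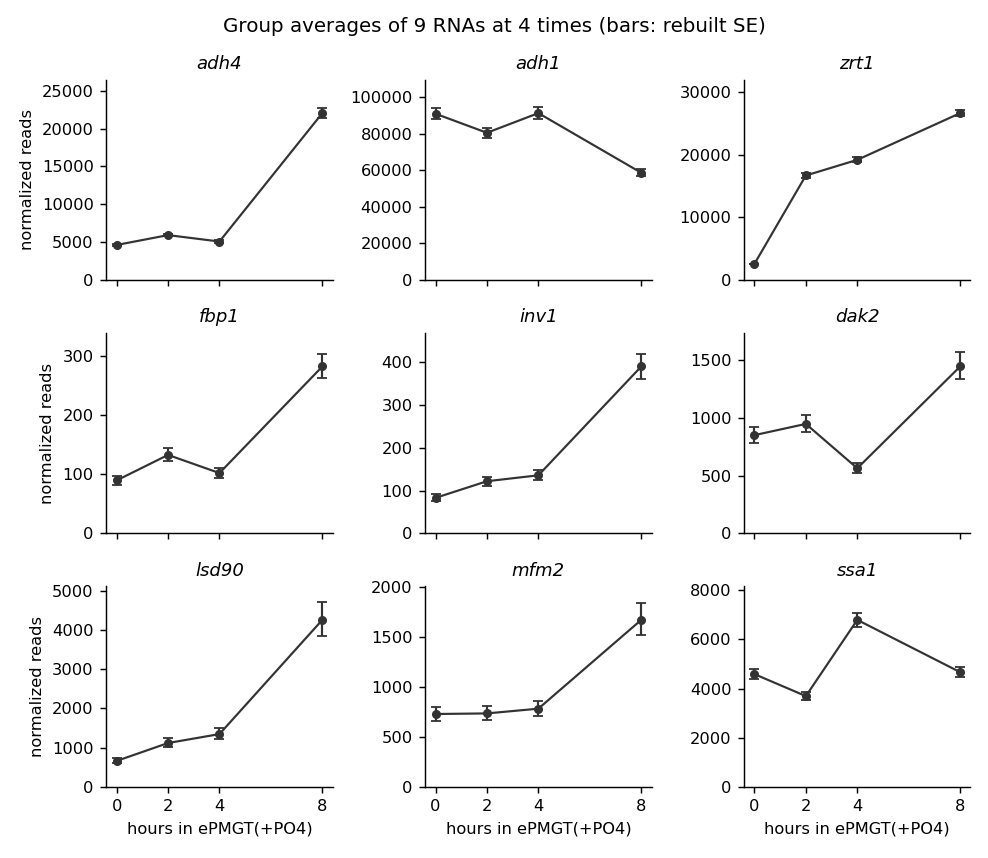
Group averages (vertical axes from 0, normalized reads) at 0, 2, 4 and 8 h for 9 RNAs, each point the authors' mean of 3 libraries and each bar 1 standard error rebuilt from the deposited errors. *adh4*, *fbp1*, *inv1*, *dak2*, *lsd90* and *mfm2* were highest at 8 h, *inv1* and *lsd90* after a smaller earlier rise, *adh1* was lowest at 8 h, *zrt1* rose early, and *ssa1* peaked at 4 h.

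Several mating genes of M cells rose. In bulk RNA such a rise in all cells and a larger share of expressing cells cannot be told apart, here and for every other RNA. *mam2*, the receptor for the pheromone of the opposite mating type, averaged 107, 106, 104 and 243 at 0, 2, 4 and 8 h, a flat course through 4 h and then a rise of 1.22 ± 0.16 (adjusted p = 2.99e-12). *mfm2*, which encodes the M-factor pheromone, averaged 730, 736, 784 and 1675 (1.10 ± 0.20, adjusted p = 7.39e-07). Pheromone maturation and export genes also rose, with *mam4*, the methyltransferase that caps M-factor, at 0.69 ± 0.10 and the exporter *mam1* at 0.64 ± 0.07. *mam4* averaged 815, 584, 594 and 956 at 0, 2, 4 and 8 h, so part of its rise made up an earlier fall. In the pathway that passes on the pheromone signal, the G-protein subunit *gpa1* (0.42 ± 0.05), the Ras activator *ste6* (0.44 ± 0.10), the adaptor *ste4* (0.30 ± 0.06) and the MAP kinase *spk1* (0.54 ± 0.07) rose. *rgs1*, a negative regulator of that G protein chosen here after its values were seen, was at 0.60 ± 0.09 (adjusted p = 2.35e-09).

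Of 20 mating and meiotic entry genes, 10 rose and 1, the meiotic factor *mei4* (-0.39 ± 0.13), fell, and the median was 0.27. Over all RNAs tested, 12.2% rose and 16% fell. The regulator *ste11* itself was at 0.23 ± 0.12 and did not pass (adjusted p = 0.15). The P-cell markers *map2* (-0.09 ± 0.15) and *map3* (0.01 ± 0.11) did not pass either. The 5 M-cell markers summed to 2134 at 4 h and 3869 at 8 h, most of it from *mam1* and *mfm2*. The TR box, TTCTTTGTT, the letters that Ste11 is known to bind, was found in 1.91% of all coding promoters read, in 0 of 13 promoters of coding genes called higher, *mam2* and *mfm2* included, and in 3 of the 40 promoters of coding genes higher by 1.5-fold or more, those of *mam4*, *rgs1* and the kinase gene *shk2*, with more than 1 match in each. This motif too was chosen after the values were seen. The match nearest to the start of each gene is shown to let the flanks be compared, with the box in capitals, for *mam4* at chrI:1230323-1230347 on the minus strand, for *rgs1* at chrI:679710-679734 on the plus strand and for *shk2* at chrI:273071-273095 on the plus strand.
*mam4*: gtatgattTTCTTTGTTttacttcc
*rgs1*: ttaatgatTTCTTTGTTtaaaagaa
*shk2*: aatggggtTTCTTTGTTtatacatt

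Stress genes moved both ways. Of 34 core stress response genes, the set that many stresses induce through the kinase Sty1 and the factor Atf1, 15 rose and 5 fell, with a median of 0.19. Those shares, 44.1% and 14.7%, stand beside 12.2% and 16% of all RNAs tested. *ddr48* averaged 312, 473, 492 and 1006 (1.03 ± 0.24, adjusted p = 2.68e-04), and *rds1* averaged 7010, 7792, 13345 and 21292 (0.67 ± 0.08). *mug14* went from 136 to 249 (0.88 ± 0.11). The catalase gene *ctt1* rose by 0.34 ± 0.11, whereas *atd1*, an aldehyde dehydrogenase (-0.48 ± 0.08), *hsp104* (-0.40 ± 0.08) and *atf1* itself (-0.31 ± 0.06) fell. The trehalose synthesis genes *tps1* (-0.06 ± 0.08) and *tpp1* (-0.01 ± 0.05) did not pass. The CRE core TGACGT, which Atf1 is known to bind, was found in 5.85% of all coding promoters read, in 2 of 13 promoters of coding genes called higher and in 6 of 40 higher by 1.5-fold or more. The pair among the called were *adh4* and the dehydrogenase gene *SPAC22A12.17c* (139 at 4 h and 284 at 8 h, 1.03 ± 0.17). Their matches that read along the gene, with the core in capitals, lie at chrI:158106-158127 on the minus strand for *adh4* and at chrI:1189474-1189495 on the minus strand for *SPAC22A12.17c*, and are printed to show the flanks.
*adh4*: catttattTGACGTtggagttg
*SPAC22A12.17c*: ccgctaatTGACGTtagtgtta
GATAA was found in 8 of 13 called promoters and 59.1% of all, CCAAT in 8 of 13 and 42.2%, and the heat shock core GAANNTTC in 2 of 13 and 11.1%, and CCCCAC (3.33% of all) and the MCB ACGCGT (3.14%) in 0 of 13.

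Chaperone genes had dipped at 2 h, recovered by 4 h and fell again by 8 h. Of 20 genes for Hsp70, Hsp90, their partners and related heat shock proteins, 0 rose and 15 fell from 4 h to 8 h (median -0.19), against 16% falling over all RNAs tested. The cytosolic Hsp70 *ssa1* averaged 4588, 3693, 6797 and 4667 at 0, 2, 4 and 8 h and so fell by 0.54 ± 0.09 (adjusted p = 1.31e-08) from its highest level. The Hsp40 *psi1* averaged 3455, 2073, 4138 and 3034 (-0.45 ± 0.08), the disaggregase *hsp104* 3372, 2476, 4570 and 3452, and the mitochondrial *hsp78* 5538, 3642, 5792 and 4423 (-0.39 ± 0.05). The very abundant *hsp90* averaged 85228, 55340, 88592 and 75106 (-0.24 ± 0.05). From 2 h to 4 h, 17 of these 20 had risen (median 0.45), and the 4 to 8 h step differed from the 2 to 4 h step for 15 of the 20, beside 10.7% of all RNAs. Both steps share the 4 h libraries, which enter them with opposite sign. Of the 8 subunits of the CCT chaperonin, 1 fell, *cct3* (-0.16 ± 0.04).

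**Figure D3:**
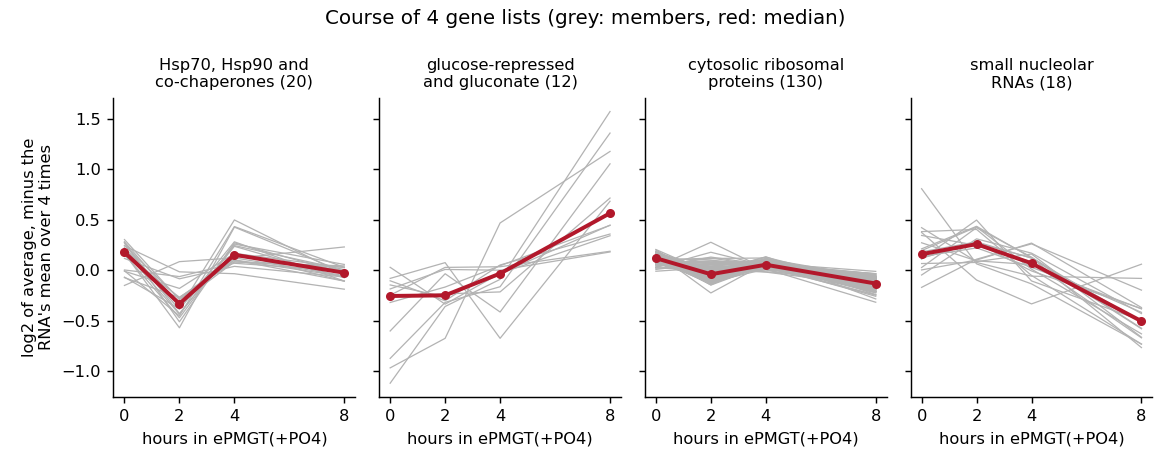
Log2 of the group average minus the mean over the 4 times for each RNA (grey lines) and the median (red) in 4 lists, against hours in the defined medium. The median of the 20 chaperone genes dips at 2 h, recovers by 4 h and falls to 8 h, that of the 12 glucose-repressed genes is highest at 8 h, and those of the 130 ribosomal protein genes and 18 small nucleolar RNAs are lowest at 8 h.

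Genes for making ribosomes fell by small amounts. Of 130 cytosolic ribosomal protein genes, 0 rose and 87 fell, with a median of -0.18, and every one of the 130 lay below 0, from -0.41 to -0.07. That is 66.9% falling, beside 16% of all RNAs tested. With the averages scaled to the same total, 58 fell and the median was -0.13, and with dispersions doubled 42 fell. *rpl3002* averaged 3020, 3163, 3173 and 2396 (-0.41 ± 0.05) and *rpl3702* went from 10595 to 8169 (-0.38 ± 0.05). Since near-identical paralogues make many of these proteins, reads may be divided between them. Of 52 ribosome assembly genes, 0 rose and 35 fell (median -0.18), led by the nucleolin *gar2*, which averaged 24667, 26569, 26575 and 18937 (-0.49 ± 0.04, adjusted p = 1.50e-34), and by *mak16* (-0.42 ± 0.04), *enp2* (-0.35 ± 0.05) and *nog2* (-0.33 ± 0.04). *gar2* was level until 4 h. Of 74 mitochondrial ribosomal proteins, 11 rose (14.9%, beside 12.2% of all RNAs tested) and 1 fell, with a median of 0.04, and 20 rose with averages scaled to the same total. Among the 11 were *snr1* (0.28 ± 0.06) and *mrpl32* (0.28 ± 0.07). The 37 aminoacyl-tRNA synthetases had 5 rises and 9 falls with a median near 0, and 10 rises and 4 falls with averages scaled to the same total, so their balance depends on the scale. Here the mitochondrial phenylalanine enzyme *msf1* (0.28 ± 0.07) and serine enzyme *dia4* (0.26 ± 0.07) rose, and the cytosolic lysine enzyme *krs1* fell by 0.25 ± 0.05.

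Biosynthetic genes fell too, in shares to be read beside the 16% that fell over all RNAs tested. Of 23 genes for making arginine, leucine, histidine and tryptophan, 0 rose and 18 fell (median -0.19), including *his2* (-0.32 ± 0.04), *arg4* (-0.31 ± 0.05) and *leu3* (-0.29 ± 0.05). Lysine synthesis had 6 falls of 7, led by *lys4* (15975 to 12371, -0.37 ± 0.05). Purine synthesis had 9 falls of 12, led by *gua2* (10082 to 7985, -0.34 ± 0.03), and pyrimidine synthesis and uptake 3 of 6, namely *ura3* (-0.36 ± 0.04), the uracil permease *fur4* (-0.31 ± 0.07) and *ura1* (-0.23 ± 0.03). None of these 4 lists had a rise in this test, and at total scaling 11 of the 23, 4 of 7, 5 of 12 and 3 of 6 fell. Iron-using genes had 8 falls and 1 rise of 19 and include *lys4* and *leu2* (-0.24 ± 0.05) of the amino acid pathways, with the iron-sulfur ribosome factor *rli1* (-0.25 ± 0.03). The 1 rise was that of the heme enzyme *ctt1*. The biotin importer *vht1* averaged 15242, 13149, 9246 and 5962, lower at each time, and fell by 0.63 ± 0.07 (adjusted p = 3.15e-16).

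**Figure D4:**
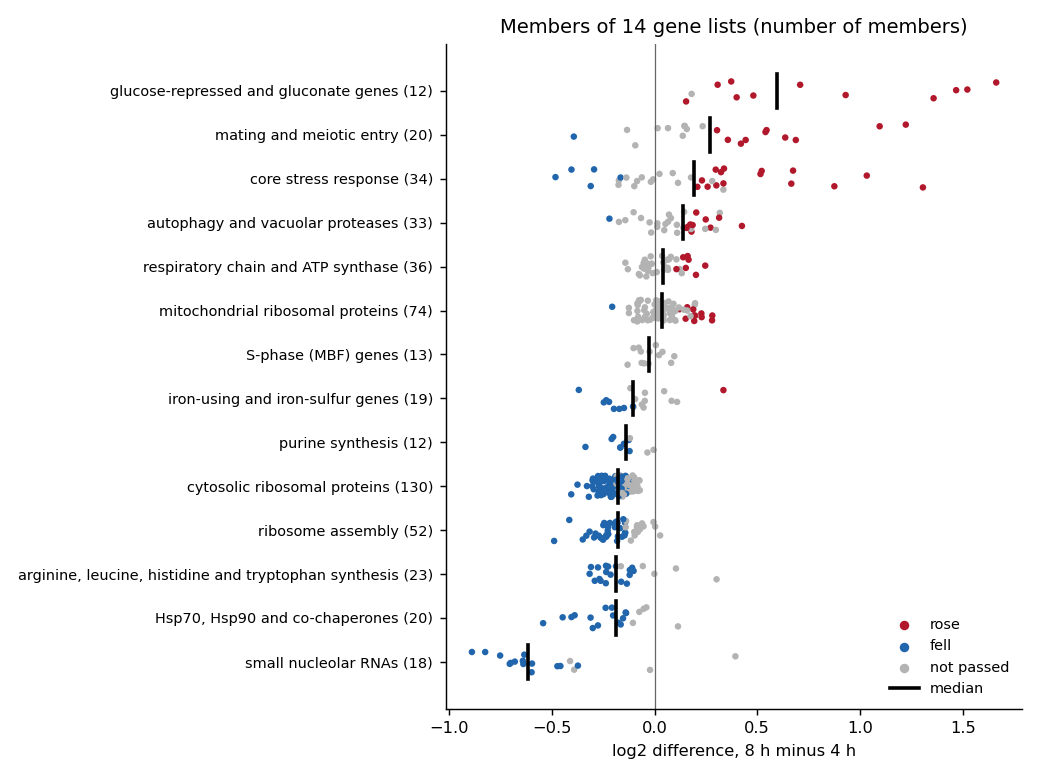
Log2 difference between 8 h and 4 h for each member of 14 gene lists (points, jittered vertically; red rose, blue fell, grey not passed; black bar the median; number of members in brackets). The glucose-repressed list has its median at 0.59 and the small nucleolar RNAs at -0.62, and the points of the 130 ribosomal proteins all lie left of 0.

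Of the noncoding RNAs 22.4% fell, beside 15.3% of the coding ones, a difference that was not tested. Their averages were lower (median 215 against 1503 normalized reads at 4 h) and their standard errors larger (median 0.13 against 0.06). Small nucleolar RNAs, which guide modification and cleavage of ribosomal RNA, had 0 rises and 14 falls of 18, with a median of -0.62. *snR30*, needed for early cleavage of the precursor, averaged 3466, 2744, 2892 and 1633 at 0, 2, 4 and 8 h (-0.82 ± 0.11, adjusted p = 4.03e-12), and the box C/D RNA *snoU24b* went from 102 to 54.9 (-0.89 ± 0.25). *snR90* (0.39 ± 0.19) was the member above 0 and did not pass. The RNA of RNase MRP, *mrp1*, which also takes part in ribosomal RNA processing and was chosen after its values were seen, fell by 0.78 ± 0.09 (885 to 517). Mature forms of these RNAs carry no long poly(A) tail, so a poly(A)+ library holds only part of them, and a change in how much of them was carried through selection was not tested. Of 329 antisense RNAs, 27 rose and 57 fell (median -0.04), and of 170 intergenic RNAs 16 rose and 44 fell (median -0.13). Scaled to the same total, the antisense RNAs had 44 rises and 44 falls, so their direction as a class is not settled.

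Among single noncoding RNAs, *SPNCRNA.782* was called lower, averaging 313, 426, 323 and 159 (-1.03 ± 0.14, adjusted p = 3.08e-11). *SPNCRNA.1115* (216 to 459, 1.08 ± 0.32, adjusted p = 0.0048) and *meu19* (72.1 to 145, 1.01 ± 0.23, adjusted p = 1.63e-04) were called higher, and *SPNCRNA.1115* overlaps *SPCC1235.01* on the same strand. *end4-antisense-1* averaged 721, 621, 362 and 183, lower at each later time (-0.99 ± 0.10). *ubc4-antisense-1* averaged 303, 225, 373 and 205 (-0.86 ± 0.11), while *ubc4*, the gene it lies across, was at 0.02 ± 0.05 and did not pass. Between them these RNAs show both late reversals and steady falls. Library preparation kept strand information, but no source used here states whether counting used it, so reads of an antisense RNA and of its partner may be mixed.

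Only 2 coding features were called lower, and both entered the set through their 4 h level alone. *SPAC6C3.03c*, annotated as specific to *S. pombe*, averaged 141, 165, 102 and 37.3 (-1.45 ± 0.19, adjusted p = 2.15e-12). *SPAC9G1.14*, annotated as dubious and lying across *wis4* on the opposite strand, averaged 149, 172, 125 and 56.1 (-1.16 ± 0.18, adjusted p = 5.23e-09), and *wis4* was at -0.10. Just short of 2-fold, the transcription factor gene *grt1* averaged 354, 261, 212 and 107 (-0.98 ± 0.13), lower at each time. A further 4 coding falls were chosen after their values were seen. The vitamin B6 transporter gene *SPCC576.17c* went from 580 to 332 (-0.80 ± 0.10), back near its 0 h average of 321. *aes1*, of the PhzF family, averaged 2318, 6430, 4398 and 2682 (-0.71 ± 0.06). Centromere protein *cnp3*, the CENP-C of fission yeast, fell by 0.64 ± 0.07, from 7182 to 4624. The acetyltransferase gene *SPBC1271.07c* (-0.66 ± 0.06) lies next to *SPBC1271.08c*, which fell by 0.65 ± 0.06. Such pairs were few: of neighbouring RNAs in the set, 7 pairs were both past 1.5-fold, 5 of them in 1 direction, and in the pair *cmt2* and *aes1* the first rose (0.83 ± 0.11) and the second fell.

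The remaining called RNAs were *SPAPJ695.02* and *pol4*. *SPAPJ695.02*, specific to *S. pombe*, averaged 45.2, 243, 264 and 808 (1.61 ± 0.08, adjusted p = 7.72e-93), with 1 rise by 2 h, a plateau to 4 h and another rise by 8 h. *pol4*, a DNA repair polymerase, averaged 28.8, 48.7, 44.7 and 100.6 (1.17 ± 0.28, adjusted p = 3.05e-04), and overlaps the abundant *tif5* on the same strand. Of the 18 called RNAs, 6 averaged under 100 at either 4 h or 8 h, namely *SPAC977.05c*, *SPAC4H3.03c*, *pol4*, *meu19*, *SPAC6C3.03c* and *SPAC9G1.14*. They belong to the set through the time at which they were high, so for these the difference partly follows from the entry rule. With entry at an average of 10 instead, 26 RNAs were called higher and 19 lower, and tested against a 2-fold change rather than none, 3 were called (*adh4*, *SPAC977.05c* and *SPAPJ695.02*).

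Some RNAs turned back, in shares no larger than those over all RNAs, and few of them after a 2-fold change. Of the 651 RNAs that rose from 4 h to 8 h, 166 had been higher and 111 lower at 4 h than at 0 h, and 374 had not passed at that point. Of the 855 that fell, 156 had been higher, 318 lower, and 381 had not passed, beside 22.7% higher and 18.7% lower over all 5342. The fallers that had been higher and the risers that had been lower were both smaller shares than over all RNAs. The fallers that had been lower were a larger share. The comparisons of 4 h with 0 h and of 8 h with 4 h share the 4 h libraries. Of the 15 called higher, 7 had risen and 1, *dak2*, had fallen by 4 h. In 10 of the 15 the late step differed from the 2 to 4 h step, beside 10.7% of all RNAs. These 15 were selected for a large late step, so that count is largely built in and is no separate result. Coding genes that were 2-fold or more up at 4 h and then fell were *SPBPB2B2.05* (175, 451, 656 and 520 at 0, 2, 4 and 8 h, -0.34 ± 0.09), the iron-sulfur scaffold *isu1* (-0.17 ± 0.04) and the transporter *mfs1* (-0.17 ± 0.06). The glutathione transferase *gst2* was the gene that had been 2-fold or more down and then rose, averaging 3152, 2464, 1434 and 1813 (0.34 ± 0.08). In the step from 2 h to 4 h, 14 RNAs were called (0.261% of 5358), 6 higher and 8 lower, over an interval of 2 h in place of 4 h.

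Other groups moved in part or hardly at all, and over all RNAs tested 12.2% rose and 16% fell. Of 33 autophagy and vacuolar protease genes, 11 rose and 1 fell (median 0.14), with *fun14* at 0.43 ± 0.11, *atg2402* at 0.31 ± 0.11, *atg17* at 0.27 ± 0.06 and carboxypeptidase *cpy1* at 0.25 ± 0.06. Of 13 iron acquisition genes, which had a median log2 difference of 1.35 between 4 h and 0 h, 3 rose further, namely *frp2* (0.66 ± 0.15), *sib2* (0.40 ± 0.06) and *mmt1* (0.28 ± 0.07). Of 22 genes for using nitrogen sources, 2 rose and 3 fell (median 0.06), shares below those of all RNAs tested, and 6 rose and 3 fell with averages scaled to the same total, with glutamate dehydrogenase *gdh1* up from 28082 to 36077 (0.36 ± 0.07) and glutamate synthase *glt1* down by 0.22 ± 0.06. In the phosphate regulon, 3 of 11 rose and 2 fell. The phosphate transporter *pho84* averaged 9592, 6426, 12391 and 16733 (0.43 ± 0.05), the glycerophosphodiester transporter *tgp1* rose by 0.38 ± 0.07 and the acid phosphatase *pho1* by 0.28 ± 0.06. *pho1* averaged 18606, 9984, 15869 and 19242 at 0, 2, 4 and 8 h, so after a dip at 2 h it was back near its YES level at 8 h. The noncoding RNA *nc-tgp1*, which lies upstream of *tgp1* and is known to repress it, went from 936 to 629 (-0.57 ± 0.08). The phosphate transporters *pho842* (-0.38 ± 0.08) and *pho843* (-0.30 ± 0.05) fell. None of the 13 S-phase genes driven by MBF passed, with a median of -0.03 (0 of them at an unadjusted p under 0.05 in the rebuilt Wald test), and 5 of 10 histone genes fell by up to 0.20.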

How the data were processed

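Poly(A)+ RNA of 12 libraries (4 times, 3 libraries each) had been sequenced by the study. Per the labels and methods, the authors aligned reads with HISAT2 2.1.0 to build ASM294v2, converted them with SAMtools, counted them over exons with HTSeq 0.10.0 and set every time in the defined medium against 0 h with DESeq2, whose version no source used here states. For 6988 features, 3 deposited tables hold group averages, a signal in counts divided by size factors, and the standard error of each log2 fold change, a deposited log2 value. The authors' own fold changes, test statistics and p-values, which are also in the tables, were not used.

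For each RNA a dispersion was solved from the 3 deposited standard errors and averaged, and the log2 ratio of the 8 h and 4 h averages was divided by the standard error that this dispersion and both averages give with 3 libraries a group. The 2-sided normal p-values of this Wald test were adjusted by the Benjamini-Hochberg method over 6148 features averaging 10 or more at either time, and calls required an adjusted p of 0.05 or less and, where stated, a 2-fold change. Intervals are at 95%. The overall averages in the tables imply a fit of 21 libraries, 9 of which are not analysed here, and the dispersion draws on that fit. On simulated data for this comparison (5194 genes), 44 of 50 genes changed 1.25-fold passed, 48 of 50 changed 1.5-fold passed, 50 of 50 changed 2.5-fold were called, and 10 of 4994 unchanged genes passed. The simulated standard errors were built from the same dispersion that generated the counts. The simulation therefore checks the arithmetic only, and cannot show how often real unchanged RNAs pass if the solved dispersion is wrong. Depth per library is unknown, so no counting interval is given.

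The members and the 40 gene lists were chosen with earlier results of these data known, and 23 of 500 list entries were not matched. Genes were named by rule: among the called, up to 20 rises and 15 falls of coding genes and 5 noncoding RNAs each way; up to 4 passing members of each list with the largest differences; and up to 5 coding genes each way that turned, taken here from the rebuilt test at 4 h against 0 h. Other genes named were chosen after their values were seen. Annotations, positions and promoters are from RefSeq ASM294v3, to which 5336 of 5342 RNAs were matched. Alternatives covered the dispersion, scaling, reference distribution, entry level, adjustment, pseudocount and fold. Python 3.11.15, pandas 2.3.3, numpy 2.4.6, scipy 1.17.1 and matplotlib 3.10.9 were used.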

Additional observations from a re-analysis of the deposited data

How the results depend on the processing

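None of the 136 RNAs named by rule changed direction, but all of them had passed the test, so small shifts could hardly reverse them. The other RNAs named were not checked. Scaling both groups to the same total turned the balance over, from 651 rises and 855 falls to 1239 rises and 563 falls. A t distribution with 4 degrees of freedom left 1 RNA past the threshold, *adh4*, with 1 rise, 0 falls and 0 called lower. Entry at an average of 500 gave 6 called, 6 higher and 0 lower, and entry at 10 gave 45, 26 higher and 19 lower. Testing against a 2-fold change left 3 RNAs, 3 higher and 0 lower, since few differences were that large. Chosen after seeing the data, a 1.5-fold limit gave 100 called, 49 higher and 51 lower, and doubling the dispersion left 700 that passed, 236 rises and 464 falls. The cause was not tested beyond what each setting changes by construction. Dispersions from the 4 h or 8 h table alone, summed deposited variances, centring on the median, adjustment over fewer features and a pseudocount of 1 each kept all 18 called RNAs. Of the 136 RNAs named by rule, 6 lost their call under total scaling, 3 under centring, 34 with dispersions doubled, 135 under the t distribution and 133 against a 2-fold change. The difference of the deposited log2 fold changes was not run. No paired analysis was possible because only group averages were analysed, and for the same reason no replicate could be left out. The size of the error, not measured per library here, limits every small difference.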
